A study of Mus musculus with 4 samples.

Results

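The CC chemokines that recruit monocytes, and the receptors that read them, were described in 4 sections of mouse tibial muscle: the ligands Ccl2, Ccl3, Ccl4, Ccl6, Ccl7, Ccl8, Ccl9 and Ccl12 and the receptors Ccr1 and Ccr2, 10 genes of the 32285 features in the tables. They were taken by symbol alone, and each symbol matched 1 feature. The sections came from Nse-Bmp4 mice on the C57BL/6 strain, 6-8 week old, in which a rat neuron-specific enolase promoter drives Bmp4 and in which cardiotoxin injury of the muscle is followed by heterotopic ossification. One section was uninjured (day 0) and the others were taken on days 1, 3 and 7 after the injury. Every section carried the transgene, the uninjured one included, and none was wild type. How far a change after injury depended on the transgene therefore cannot be told. With 1 section a day, differences between days cannot be told apart from differences between muscles or slides, no test was possible, and the 95% intervals cover counting error only. The labels speak of 3 tibial muscles mixed for one group, and whether this held for the sections was not settled.

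CC chemokines are small secreted proteins that bind receptors of the seven-transmembrane family on leukocytes, and gradients of them draw cells out of the blood and through tissue. Ccr2 marks inflammatory monocytes and is needed for them to leave the bone marrow; its ligands in the mouse include Ccl2, Ccl7 and Ccl12. Ccr1 is found on monocytes and neutrophils and is bound by Ccl3, Ccl6, Ccl7 and Ccl9, and mouse Ccl8 acts through Ccr8.

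The 8 ligand genes lie on mouse chromosome 11 in 2 groups (RefSeq positions on GRCm38.p6). Ccl2 (82035577 to 82037452), Ccl7 (82045712 to 82047525), Ccl12 (82101845 to 82103399) and Ccl8 (82115185 to 82116799) form the first. Ccl9 (83572917 to 83578636), Ccl6 (83587886 to 83593087), Ccl3 (83647843 to 83649378) and Ccl4 (83648624 to 83664683) form the second. The annotated spans of Ccl3 and Ccl4 overlap, and the use of strand in counting was not given in the sources used here, so their UMIs may not be wholly separate. Ccr1 (123962126 to 123968692) and Ccr2 (124101918 to 124109140) are neighbours on chromosome 9. The 250 bases before the start are shown for 2 adjacent pairs on which the results turn: Ccl8 and Ccl12, of which Ccl8 had the later course, and Ccl9 and Ccl6, which had the higher share of ligand RNA at day 1. Capitals mark letters that matched 1 of 3 searched motifs on either strand: TATAAA (the TATA box), TGANTCA (AP-1) and GAGGAA (a core bound by PU.1 and other ETS factors).
Ccl8, chr11:82114935-82115184, plus strand: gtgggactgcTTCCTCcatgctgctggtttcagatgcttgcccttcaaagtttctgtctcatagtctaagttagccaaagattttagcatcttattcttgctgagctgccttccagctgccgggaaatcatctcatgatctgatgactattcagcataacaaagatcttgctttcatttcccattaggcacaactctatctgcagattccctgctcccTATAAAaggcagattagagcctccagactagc
Ccl12, chr11:82101595-82101844, plus strand: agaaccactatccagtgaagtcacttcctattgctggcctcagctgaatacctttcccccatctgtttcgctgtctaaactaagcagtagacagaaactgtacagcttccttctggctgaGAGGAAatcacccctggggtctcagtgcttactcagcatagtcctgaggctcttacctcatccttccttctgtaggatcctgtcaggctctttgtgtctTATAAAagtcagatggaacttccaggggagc
Ccl9, chr11:83578637-83578886, minus strand: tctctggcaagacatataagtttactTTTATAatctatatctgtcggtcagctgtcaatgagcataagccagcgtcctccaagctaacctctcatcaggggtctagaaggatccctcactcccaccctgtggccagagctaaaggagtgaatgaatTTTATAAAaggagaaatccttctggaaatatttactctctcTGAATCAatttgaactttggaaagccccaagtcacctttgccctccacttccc
Ccl6, chr11:83593088-83593337, minus strand: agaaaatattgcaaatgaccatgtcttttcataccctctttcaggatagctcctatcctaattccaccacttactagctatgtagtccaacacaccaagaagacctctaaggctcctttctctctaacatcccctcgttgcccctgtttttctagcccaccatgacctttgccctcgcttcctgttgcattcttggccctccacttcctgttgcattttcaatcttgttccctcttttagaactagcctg
In Ccl8 and in Ccl12 TATAAA began at position -32 and -31 from the start, and each window also held 1 GAGGAA on either strand. In Ccl9 the matches were the TATA letters at -224, an overlapping pair of them from -94, and TGAATCA at -53. The Ccl6 window held none of the 3. TATAAA was in 12.4% of the 32851 RefSeq promoters of the same length, GAGGAA in 23.3% and the AP-1 letters in 6.75%. Windows were in the table for 7 of the 10 genes, of which 3 held TATAAA, 4 held GAGGAA and 1 held the AP-1 letters. A match describes the letters only.

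The sections held 2107, 2667, 3029 and 3032 spots at days 0, 1, 3 and 7, with 43871586, 16777832, 56113066 and 41832640 unique molecular identifiers (UMIs, each standing for 1 captured RNA molecule). The day 1 section stood apart in depth, with a median of 6322 UMIs per spot against 12119.5 to 21029 in the other sections, and 513 of its spots were below 2000 UMIs. Genes of adult muscle fibres, the defining markers of the labelled tissue, took 6.61% to 21.1% of the UMIs and were lowest at day 3. A Visium spot covers several cells, so that fewer cells of a type and less RNA per cell cannot be told apart. The sections shared barcodes, 1341 of them in all 4, since a barcode is an address on the slide.

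All 10 genes were at least 2-fold higher at day 1 and at day 3 than at day 0, where 16.6% and 31.9% of the 17250 genes with at least 10 UMIs were. In counts per 1000000 UMIs (CPM), 9 of 10 were at least 8-fold higher at day 1 (2.67% of all genes), Ccl8 being the exception, and 10 of 10 at day 3 (5.6%). The median log2 ratio over the 10 genes was 5.07 at day 1 and 5.29 at day 3, beside 0.19 and 0.56 over all genes tested. At day 7, 9 of 10 were still at least 2-fold above day 0 (32% of all genes), all but Ccl9, and 6 of 10 at least 8-fold (2.94%). From day 3 to day 7, 8 of 10 were at least 2-fold lower (11.4% of all genes), the exceptions being Ccl3 and Ccl8, and none was 2-fold higher (16.5%), with a median log2 ratio of -2.42 beside 0.09 over all genes. From day 1 to day 3, on the section totals, Ccl8 alone was at least 2-fold higher (16.6% of all genes) and none was at least 2-fold lower (5.55%). Scaling by TMM factors lowered every log2 ratio, by -0.21, -0.55 and -0.61 for days 1, 3 and 7 over day 0 and by -0.34 for day 3 over day 1, and left 10, 10 and 8 genes at least 2-fold above day 0.

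**Figure D1:**
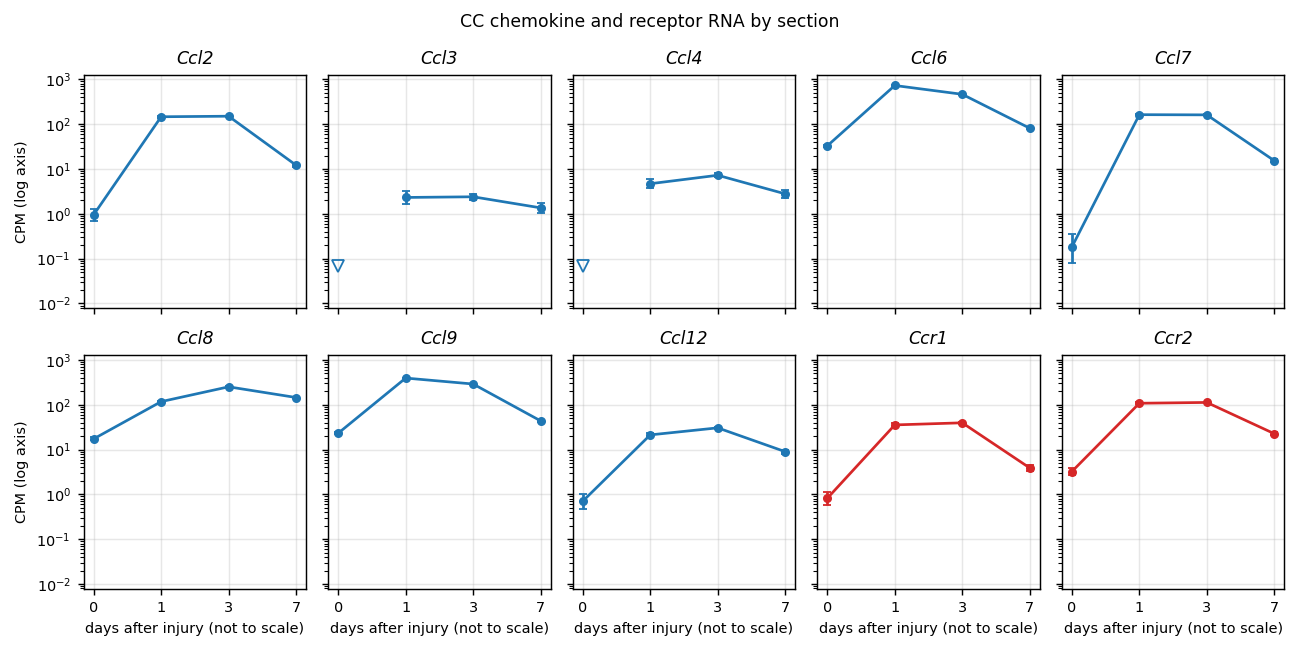
CPM of each gene (log axis) in the sections of days 0, 1, 3 and 7; blue marks ligands, red receptors, bars are exact 95% Poisson intervals, and open triangles mark 3 UMIs where a gene had none. Ccl2, Ccl7, Ccr1 and Ccr2 were nearly level from day 1 to day 3 and lower at day 7, whereas Ccl8 was highest at day 3 and still at 145 CPM at day 7.

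Among the Ccr2 ligands, Ccl2, the main draw for monocytes in injured tissue, was at 0.957, 147, 151 and 12.2 CPM in the sections of days 0, 1, 3 and 7, the order used for every such series of values. On the section totals days 1 and 3 differed by less than counting error, at a ratio of 1.03 (0.983 to 1.08), and with TMM factors the log2 ratio was -0.30, and day 7 was 12.4-fold lower than day 3. Ccl7, which binds Ccr1, Ccr2 and Ccr3, was at 0.182, 164, 162 and 15.4 CPM. Its day 0 value rested on 8 UMIs, and the day 1 ratio of 897 had an interval from 455 to 2080. Days 1 and 3 again differed by less than counting error on the section totals (ratio 0.990, 0.948 to 1.03). Ccl12 was at 0.707, 21.3, 30.5 and 8.99 CPM, so that day 3 was 1.44-fold (1.28 to 1.61) above day 1. On the section totals Ccl2 and Ccl7 thus had their step between days 0 and 1 and were lower only after day 3. With TMM factors, a log2 shift of -0.34, both were already lower at day 3 than at day 1. Ccl12 was higher at day 3 than at day 1 and 3.40-fold lower at day 7 than at day 3.

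Among the Ccr1 ligands, Ccl6 and Ccl9, 2 chemokines of rodents that myeloid cells produce, were already present in uninjured muscle and were highest at day 1. Ccl6 was at 33.0, 732, 466 and 81.5 CPM. Ccl9 was at 23.2, 394, 290 and 43.7 CPM. Day 3 was 1.57-fold below day 1 for Ccl6 and 1.36-fold below for Ccl9, both outside counting error, and day 7 was 5.72-fold and 6.64-fold below day 3. Ccl3 and Ccl4, the macrophage inflammatory proteins, were scarce. Ccl3 had 0, 39, 135 and 57 UMIs (0, 2.32, 2.41 and 1.36 CPM) and Ccl4 had 0, 79, 408 and 117 (0, 4.71, 7.27 and 2.80 CPM). Against the 3 UMIs that a count of 0 allows at day 0, which is 0.0684 CPM, Ccl3 was at least 34.0-fold higher at day 1 and Ccl4 at least 68.9-fold.

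Among the 8 ligands, Ccl8 alone was at least 2-fold higher at day 3 than at day 1 on the section totals. The log2 ratio of 1.10 shifted by -0.34 with TMM factors and by -0.36 with DESeq2 size factors, to below 2-fold. It shifted by -0.19 with totals that left out mitochondrial, haemoglobin and adult myofibre genes, again to below 2-fold. Ccl4 and Ccl12 were also higher at day 3, by 1.54-fold (1.21 to 1.99) and 1.44-fold. At day 7 the scarce Ccl3 was at 56.6% of its day 3 level and Ccl8 at 57.7%. Ccl8 was at 17.3, 118, 252 and 145 CPM. Day 3 was 2.14-fold (2.04 to 2.25) above day 1, and day 7 was 1.73-fold below day 3 but 1.24-fold (1.17 to 1.30) above day 1 on the section totals. That last order turned under other scalings, to a log2 ratio of -0.09 with TMM factors and -0.14 with DESeq2 size factors. No UMI of Ccr8, its receptor in the mouse, was counted in any section.

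Of the receptors, Ccr2 was at 3.24, 108, 113 and 22.6 CPM. On the section totals its days 1 and 3 were within counting error of each other (ratio 1.04, 0.989 to 1.10). Ccr1 was at 0.821, 35.5, 39.6 and 3.90 CPM. Day 3 was 1.11-fold (1.02 to 1.22) above day 1 for Ccr1, an order that turned under 3 other scalings. At day 7 Ccr1 was 10.2-fold and Ccr2 4.98-fold below day 3. Ccr2 followed the course of Ccl2 and Ccl7 up to day 3, and at day 7 it was at 20.1% of its day 3 level where Ccl2 was at 8.07% and Ccl7 at 9.51%.

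At day 7 the ligand mix held less Ccl6 and Ccl9 and more Ccl8 than on any earlier day. Each share is of the UMIs of the 8 ligands, as counted and without correction for length, and the intervals are exact binomial. Ccl6 held 43.8%, 46.3%, 34.2% and 26.2%, the last with an interval of 25.4 to 27.0. Ccl8 held 23.0%, 7.42%, 18.5% and 46.7% (45.8 to 47.5). Ccl2 held 1.27%, 9.28%, 11.1% and 3.92%, and Ccl7 0.242%, 10.3%, 11.9% and 4.95%. By position, the genes from Ccl2 to Ccl8 held 25.5%, 28.4%, 43.7% and 58.4% of the ligand UMIs, and those from Ccl9 to Ccl4 held the rest. The summed ligands were at 75.4, 1583, 1361 and 311 CPM, so at day 1 Ccl8 was a smaller part of a larger total and at day 7 the larger part of a smaller one.

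**Figure D2:**
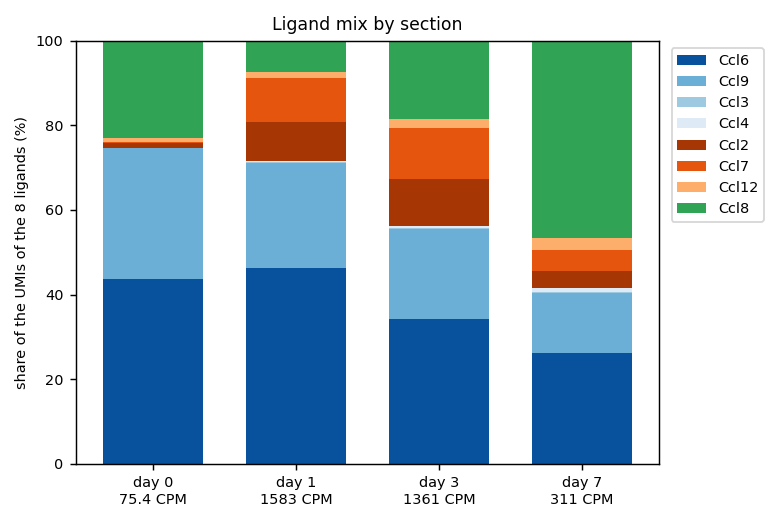
Share of the UMIs of the 8 ligands (%, from 0) held by each ligand in each section, with the summed CPM under each bar. Ccl8 went from 7.42% at day 1 to 46.7% at day 7 as the total went from 1583 to 311 CPM.

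Set against monocyte and macrophage RNA, 9 of the 10 genes were highest at day 1. A list of 7 general markers (Cd68, Adgre1, Csf1r, Lyz2, Cd14, Fcgr1 and Itgam) was at 189, 1106, 5071 and 1129 CPM. On the section totals it was thus 4.58-fold higher at day 3 than at day 1 while Ccl2, Ccl7 and Ccr2 were level. Per 1000 UMIs of the list, Ccl2 was at 5.06, 133, 29.8 and 10.8 UMIs, Ccl7 at 0.963, 148, 31.9 and 13.6, and Ccl6 at 174, 662, 91.9 and 72.2. Ccr2, a monocyte receptor, was at 17.1, 97.8, 22.2 and 20.1 per 1000. All 10 genes were lower against the list at day 3 than at day 1, from 2.14-fold for Ccl8 to 7.20-fold for Ccl6. Lyz2 made up 83.3% of the list's UMIs at day 3, and without it all 10 were still lower, from 1.17-fold for Ccl8 to 3.92-fold for Ccl6. From day 3 to day 7, Ccl8 was 2.59-fold higher against the list, Ccl3 2.54-fold (1.83 to 3.49), Ccl4 1.73-fold (1.39 to 2.13) and Ccl12 1.32-fold (1.18 to 1.48), and the other 6 genes were lower. Ccl8 alone was higher against the list at day 7 (129 per 1000) than at day 1 (106). Beside a second list, of recruited monocytes and led by Fn1, Ccl8 was instead 1.10-fold (1.05 to 1.15) higher at day 3 than at day 1. Beside it all 10 genes were lower at day 7 than at day 3, Ccl8 by 2.45-fold. The sum of that list went from 914 CPM at day 3 to 1291 CPM at day 7, while 4 of its 6 genes were at least 2-fold lower. It therefore did not follow most of its genes over those days. Neutrophil markers moved with the day 1 levels, at 1.60, 161, 55.6 and 7.86 CPM for a list of 9 genes. Of these, 6 were at least 2-fold above day 0 at day 1 (16.6% of all genes were). The defining markers Ly6g and Ngp were at 1 UMI or none in each section. The part of neutrophils, or of other cells, in the day 1 levels was not tested.

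**Figure D3:**
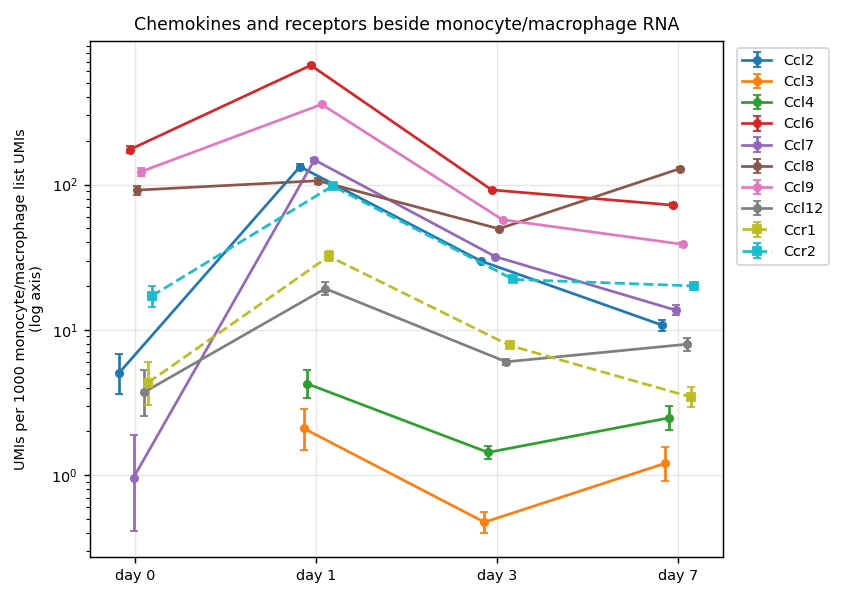
UMIs of each gene per 1000 UMIs of the 7-gene monocyte/macrophage list (log axis) by section; bars are 95% Poisson intervals of the gene's count, and Ccl3 and Ccl4 have no point at day 0, where they had no UMI. Every line ran down from day 1 to day 3, and the lines of Ccl8, Ccl3, Ccl4 and Ccl12 ran up again to day 7, Ccl8 to 129.

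Within the sections, the chemokines were found widely but at higher levels in some regions than in others. Spots of each section were grouped into regions from their RNA with all chemokine genes left out, and regions are called here by their leading genes. At day 1 the summed ligands were highest in a region of 334 spots led by Retnla, Spp1, Ppbp, Thbs1, Slfn4 and Arg1, at 5883 CPM against 1190 in the rest (4.94-fold, 4.82 to 5.08). Of the 10 genes, 9 were highest there, among them Ccl2 at 570 CPM, Ccl6 at 2575, Ccl7 at 712 and Ccr2 at 434. Ccl3 was highest in a region of 146 spots led by Actg2, P2rx1 and Cnn1, with 8 UMIs. The Retnla/Spp1 region also had the highest level of the monocyte/macrophage list, 3329 CPM, and a median of 2980 UMIs per spot. The lowest region of day 1, of 300 spots led by Inmt and Pck1, still held 318 CPM of ligands, so no region lacked this RNA.

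At day 3 the ligands and the monocyte/macrophage list parted. The 2 regions with the highest level of the list were near each other in it. It was at 9221 CPM in 452 spots led by Spp1, Rsad2, Adam8 and Cd5l. In 316 spots led by Thbs2, Cthrc1, Tubb2b and Mest it was at 9870 CPM. Lyz2 made up 83.3% of the list's UMIs in this section, and the regions were not compared without it. The summed ligands were at 3086 CPM in the Spp1/Rsad2 region and at 1319 CPM in the Thbs2/Cthrc1 region, a 2.34-fold difference (2.29 to 2.39). Ccl7 differed most, at 427 against 106 CPM (4.02-fold, 3.75 to 4.31), followed by Ccl12 (3.73-fold) and Ccl2 (3.61-fold). Ccl6 and Ccl9 differed 2.14-fold and 2.26-fold, Ccl8 1.59-fold, Ccr1 1.74-fold and Ccr2 1.44-fold (1.35 to 1.54). The 3 Ccr2 ligands therefore stood further apart between these regions than Ccr2 did. The neutrophil list was 1.76-fold higher in the Spp1/Rsad2 region and markers of resident macrophages 1.58-fold higher, and their part in the difference was not tested. Spots of a region share a section and are not replicates.

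In each section the region richest in adipocyte markers (Adipoq, Plin1, Cfd, Lep and Retn) was the first or second in summed ligands. At day 0 the ligands were highest in such a region, 191 spots led by Cidec, Cfd and Cyp2e1, at 214 CPM against 62.1 in the rest (3.44-fold, 3.18 to 3.73), with Ccl8 at 68.8 CPM. At day 1 the Actg2/P2rx1 region was richest in adipocyte markers and came second with 4050 CPM of ligands, while the Inmt/Pck1 region, which also had Cidec and Cyp2e1 among its leading genes, was the lowest. At day 3 the ligands were highest in 72 spots led by Wfdc21, Pck1 and Cfd, at 3903 CPM, where Ccl6 was at 1685, Ccl9 at 871 and Ccl8 at 835 CPM. Monocyte/macrophage RNA there was at 2623 CPM, 3.76-fold below its richest region. Markers of resident macrophages were at 1975 CPM, above every other region of day 3, and their part in the ligand level was not tested. Ccr1 and Ccr2 were lower in this region than in the Thbs2/Cthrc1 region, at 24.7 against 53.9 and 107 against 162 CPM. With finer clustering the summed ligands of day 3 were highest elsewhere, in 263 spots led by Spp1, Il1rn and Adam8, at 3903 CPM.

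At day 7 the ligands were highest in the region with most adipocyte RNA, 279 spots led by Wfdc21, Cyp2e1 and Nnat, at 1038 CPM against 261 in the rest (3.97-fold, 3.81 to 4.14). Ccl8 was at 596 CPM there and at 58.3 to 195 CPM in the other 8 regions, and the region held 9.20% of the spots and 26.4% of the Ccl8 UMIs. A region of 270 spots led by the metallothioneins Mt2 and Mt1 had the highest Ccl2, 45.1 CPM, Ccl6, 241 CPM, and Ccl7, 50.3 CPM. The region richest in monocyte/macrophage RNA, 222 spots led by Mmp12, Gpnmb and Myh3 with 3042 CPM of the list, held 220 CPM of ligands, of which Ccl8 was 80.7 CPM. Against that region the Wfdc21/Cyp2e1 region was 7.38-fold (6.67 to 8.18) higher for Ccl8, 7.62-fold for Ccl7 and 2.40-fold for Ccr2, with 2.58-fold less monocyte/macrophage RNA and 4.57-fold more RNA of resident macrophage markers. Ccl3 was highest in the Mmp12/Gpnmb region, at 4.55 CPM. In 284 spots led by the cartilage genes Col10a1, Col9a1 and Col2a1 the ligands were at 239 CPM, with Ccl8 at 153 CPM and 63.9% of the ligand UMIs.

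**Figure D4:**
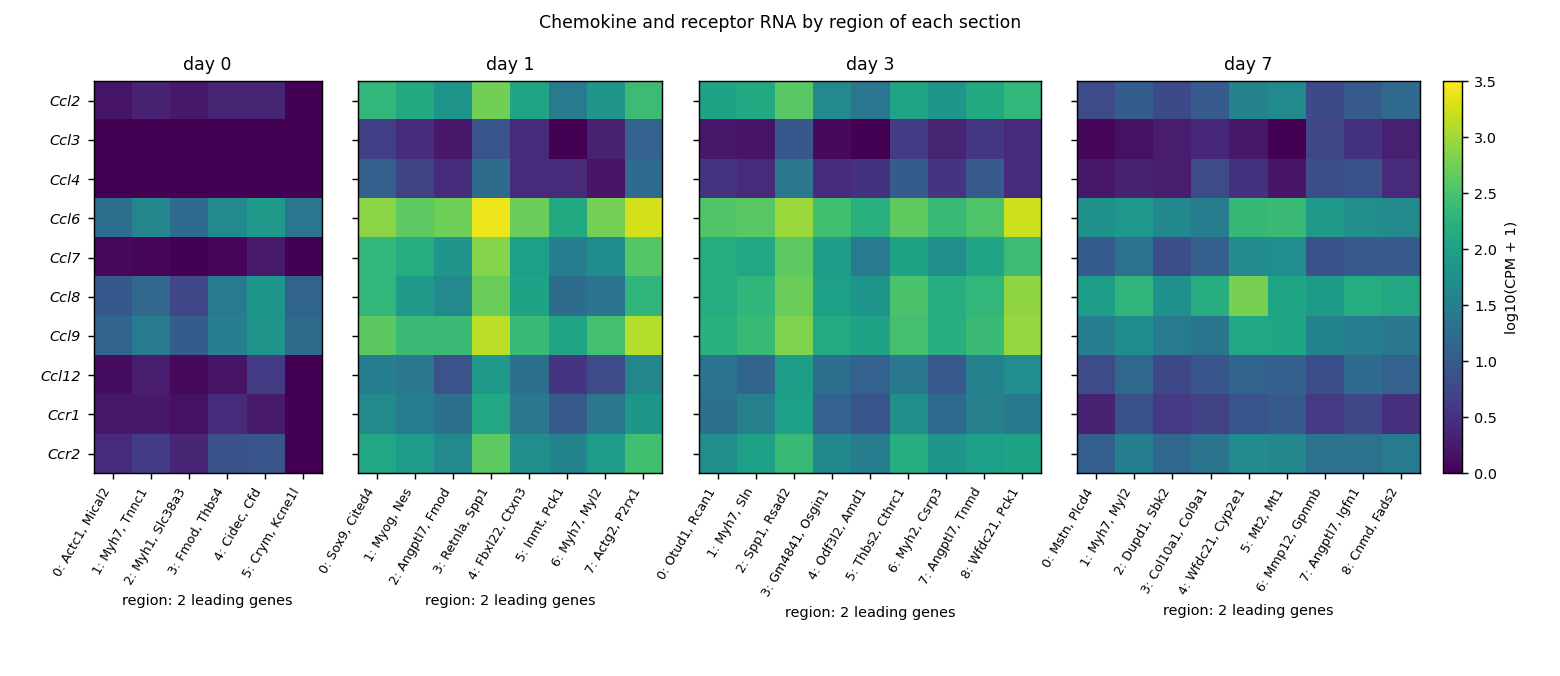
Level of each gene, as log10(CPM + 1), in each region of the 4 sections; a column is a region, labelled by its number and its 2 leading genes. At day 1 region 3 was the highest for 9 of 10 genes, and at day 7 Ccl8 was highest in region 4 (Wfdc21, Cyp2e1), at 596 CPM.

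**Figure D5:**
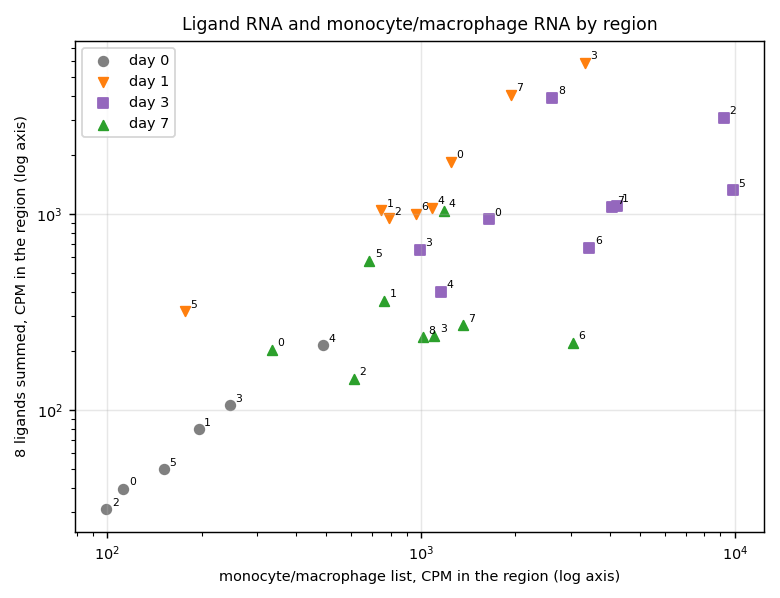
Summed ligand CPM against monocyte/macrophage list CPM for every region of each section (both log axes); a point is a region and its number is that of the region map. Region 5 of day 3 and region 6 of day 7, richest in macrophage RNA in their sections, held 1319 and 220 CPM of ligands, below region 8 of day 3 and region 4 of day 7.

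Per spot, Ccl6 was found most often and Ccl3 least at days 1 and 3. With each spot thinned to 2000 UMIs, Ccl6 was found in 6.15%, 58.3% (56.2 to 60.4), 48.7% (46.9 to 50.5) and 14.9% of the 2090, 2154, 3020 and 2948 spots deep enough. Without thinning the shares were 34.2%, 82.7%, 90.9% and 47.5%, and the order of days 1 and 3 was turned. Ccl2 was found in 0.246%, 22.4%, 19.3% and 2.70% of thinned spots, Ccl7 in 0.0311%, 23.0%, 21.6% and 3.41%, and Ccr2 in 0.770%, 18.6%, 17.2% and 4.56%. For these 3 genes the point values of days 1 and 3 stood in the other order at 4000 UMIs, over the 1792 and 2953 spots deep enough. They were 30.5% and 30.8% for Ccl2, 29.8% and 33.4% for Ccl7, and 24.6% and 29.2% for Ccr2. Intervals of days 1 and 3 overlapped for all 3 genes at 2000 UMIs, and for Ccl2 and Ccl7 at 4000 UMIs. Those of Ccr2 at 4000 UMIs lay apart (22.6 to 26.6 and 27.6 to 30.9). That depth left out 875 spots of day 1 and 76 of day 3. Ccl12 was found in 4.19% and 5.65% of spots thinned to 2000 UMIs at days 1 and 3, Ccl4 in 1.05% and 1.34%, and Ccl3 in 0.613% and 0.389%. Ccl8 was found in 3.19%, 16.1%, 29.9% and 20.8%, so it was found in more spots at day 3, and its intervals at days 1 and 3 (14.6 to 17.7 and 28.2 to 31.5) lay apart. The counts were uneven between spots: the variance over the mean, which is 1 for even scatter, was 4.75 for Ccl6, 3.06 for Ccl8 and 1.88 for Ccl2 at day 1, and 2.13, 1.71 and 1.77 at day 3. A share of spots with a UMI has no clean background here, since no region lacked the ligand RNA.

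Among the pairs given here, ligands of one spot tended weakly to be found with each other, and at day 1 Ccl6 with macrophage RNA. Spearman's rho across the 2154 thinned spots of day 1, which share 1 library and 1 depth, was 0.43 for Ccl6 with Ccl9, 0.33 for Ccl2 with Ccl7, 0.32 for Ccl6 with Ccr2 and 0.46 for Ccl6 with the monocyte/macrophage list. It was -0.36 for Ccl6 with adult muscle fibre genes, and given that fibre share the values were 0.35, 0.24, 0.23 and 0.38. At day 3, Ccl6 with Ccl9 was at 0.30 and Ccl2 with Ccl7 at 0.28, and given the fibre share Ccl2 with the macrophage list was at 0.01. At day 7 the highest value among the 10 genes was 0.14, for Ccl6 with Ccl9. The genes whose spots were most like those of Ccl6 at day 1, among 2257 compared, were Tmsb4x (rho 0.47), Ftl1 (0.45) and Actb (0.45), and those most like Ccl8 at day 3 were Ctsb, Ftl1 and Tmsb4x (each 0.31).

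A ligand and its receptor were found together in a minority of spots. Among thinned spots, Ccl2 and Ccr2 shared 7.75% (6.66 to 8.96) at day 1 and 5.26% (4.50 to 6.12) at day 3, which is 1.86 and 1.58 times the product of their separate shares. Ccl7 and Ccr2 shared 8.16% and 5.48% (1.91 and 1.47 times the product), and Ccl7 and Ccr1 3.47% and 2.31% (2.11 and 1.66 times). Ccl6 and Ccr1 shared 5.63% and 4.41% (1.35 and 1.40 times), and Ccl9 and Ccr1 4.70% and 3.58% (1.52 and 1.51 times). The order of the days depended on the depth: with spots thinned to 4000 UMIs day 3 was the higher for each of these 5 pairs. That depth left out 875 spots of day 1 and 76 of day 3, so the spots compared changed along with the depth. Ccl2 and Ccr2 then shared 11.3% of day 1 spots (interval 9.84 to 12.8) and 12.8% of day 3 spots (11.6 to 14.1), intervals that overlap, and without thinning this pair shared 21.9% and 45.1%. A spot holds several cells, so a shared spot does not place both RNAs in 1 cell.

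The rest of the family took mixed courses, some of them like those of the 10 genes. The 8 other CC receptors, of which 5 had at least 10 UMIs, summed to 0.843, 28.6, 65.1 and 14.99 CPM. Their sum was thus highest at day 3 and lower at day 7. Of 13 other CC ligands, 11 had at least 10 UMIs. On days 1, 3 and 7, respectively, 5, 7 and 5 of the 13 were at least 2-fold above day 0 (16.6%, 31.9% and 32% of all genes were). None was 2-fold lower (9.93%, 8.53% and 2.13% of all genes were). Ccl21a, a ligand of lymphatic vessels whose symbol covers 2 features, was at 6.88, 4.23, 25.6 and 101 CPM, and Ccl11, which draws eosinophils, at 15.3, 9.48, 9.94 and 24.0 CPM, so both were highest at day 7. Ccl5, which binds Ccr1, was at 0.501, 2.56, 15.8 and 9.39 CPM, so it was highest at day 3, as Ccl8 was. Of 5 atypical receptors, which bind chemokines without classical signalling, 3 were at least 2-fold lower at day 1 than at day 0 (Ackr2, Ackr3 and Ackr4), where 9.93% of all genes were, and none was 2-fold higher. The Ackr2 and Ackr4 values at day 1 rested on 9 and 2 UMIs. Ackr3 was at 62.9, 18.1, 43.1 and 70.7 CPM, lowest at day 1. Of 7 cytokines known to induce chemokines, 4 had at least 10 UMIs. All 4 were at least 2-fold above day 0 at days 1 and 3 (16.6% and 31.9% of all genes were). Il1b, at 1 UMI in the day 0 section, was at 21.3 CPM at day 3 and 2.22 at day 7.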

How the data were processed

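Fresh frozen sections were profiled on spatial arrays whose barcoded spots capture polyadenylated RNA. The deposited tables hold UMI counts per gene and spot, made by the authors with Space Ranger (1.2.0 in the file headers) on mm10, and were used as deposited for spots over tissue. No column was left unmapped. Sections were grouped by day from their titles. The 10 genes, the marker lists and the comparisons were chosen with earlier results of these data known. Named comparison genes were those with the highest rho, or set by fixed lists.

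UMIs were summed per section, scaled to CPM and compared as ratios, with exact Poisson, conditional binomial or Clopper-Pearson intervals at 95% (SciPy 1.17.1) and a floor of 3 UMIs. Because UMIs count molecules once, intervals and floors cover counting error only. Shares and rho across spots used spots thinned to 2000 UMIs (mean of 20 draws), leaving out 17, 513, 9 and 84 shallower spots at days 0, 1, 3 and 7. Regions came from Leiden clustering per section (Scanpy 1.11.5, 2000 variable genes, 30 components, 15 neighbours, resolution 0.5) without chemokine, mitochondrial and haemoglobin genes. They were numbered from 0 and named by the genes highest over the rest at 50 CPM or more. A region's being richest was read from the same spots and is a description. Scaling alternatives used edgeR 4.0.16 (TMM) and DESeq2 1.42.0 (size factors). Ratios and thinning were tested on simulated data. Promoter windows and positions came from RefSeq GRCm38.p6, the same assembly as mm10.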

Additional observations from a re-analysis of the deposited data

How the results depend on the processing

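The counts of genes at least 2-fold above day 0 at days 1, 3 and 7 (10, 10 and 9) and at least 2-fold below day 3 at day 7 (8) were within 1.5 times of these under TMM factors, DESeq2 size factors, totals without mitochondrial, haemoglobin and adult myofibre genes, and spots with at least 1000 UMIs, with 8 at day 7 under TMM and DESeq2. The share of all genes at least 2-fold above day 0 was lower with TMM, at 18.7% at day 3 and 14.7% at day 7. Orders that turned were those of Ccr1, day 3 over day 1 (log2 ratio -0.18 with TMM, -0.21 with DESeq2 and -0.035 with the reduced total), and of Ccl8, day 7 over day 1 (-0.094 and -0.14 with TMM and DESeq2). Beside the recruited monocyte list the log2 ratios turned to 0.14 for Ccl8 at day 3 over day 1, and to -1.32 for Ccl3, -1.88 for Ccl4, -1.29 for Ccl8 and -2.26 for Ccl12 at day 7 over day 3. From day 3 to day 7 the sum of this list was higher while 4 of its 6 genes were at least 2-fold lower. Without thinning, the share of spots with Ccl6 and Ccl9 was 8.24 and 11.9 percentage points higher at day 3 than at day 1. At day 3 the rank correlation of Ccl7 with macrophage RNA across spots was -0.013 given the fibre share. The ratio of summed ligands in the richest region to the rest was 4.14 at day 0 and 3.57 at day 3 with resolution 1, and 3.16, 4.32, 2.71 and 3.71 at days 0, 1, 3 and 7 with the reduced total. In all, 300 further values stayed within their counting or draw intervals and 308 moved outside them with the same direction or with no direction called, and causes were not tested.

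No paired analysis was possible because each day had 1 section. The day 1 section was the shallowest, and 3 UMIs were worth 0.179 CPM there against 0.0535 at day 3, which limits Ccl3 and Ccl4 most.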
